A study of Mus musculus with 134 samples.

Results

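Mammary tumors of the MOLF backcross were ordered by how much milk gene RNA they held, and the tumors at both ends of that order were compared across all other genes. The order came from the milk value, the mean log2 level of Csn1s2a (alpha-S2-like casein), Csn2 (beta-casein) and Glycam1 (a mucin-like glycoprotein that lactating mammary epithelium secretes). The 45 tumors with the highest and the 45 with the lowest value are called milk-high and milk-low here, so 90 of 134 tumors entered the comparison and 44 tumors lay between. These groups were chosen by measured values, not by a treatment or a label. The levels of the 3 genes are therefore given as a description, and no test was made on them.

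Every tumor came from a PyMT+ N2 female, bred from MMTV-PyMT males and MOLF/EiJ females by crossing the PyMT+ F1 males to FVB/NJ females. Milk-high, milk-low and in-between tumors thus shared the polyoma middle T transgene, the promoter of mouse mammary tumor virus that drives it, and the absence of any treatment. Tumors were left to grow until the animal neared its humane endpoint, and the labels give 1 tumor per mouse with no age, parity or tumor stage. Each female carried her own MOLF segments, and genotypes were not used here. RNA from whole tumors was measured on Mouse Gene 1.0 ST arrays as log2 values, so a difference of 1 is a doubling. Fewer cells of a type and less RNA per cell cannot be told apart in such samples.

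In the mammary gland, alveolar luminal cells make milk under prolactin, whose receptor activates the kinase JAK2 and the transcription factor STAT5. STAT5 binds the casein promoters and, with the transcription factor ELF5, switches on caseins, whey proteins and the enzymes of milk fat. Secretion then needs sugar and amino acid uptake, calcium and phosphate transport, and a large endoplasmic reticulum. The results follow this order, from milk proteins to fat, sugar, transport and signalling.

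STAT5 recognises the palindrome TTCNNNGAA, which reads the same on both strands and was searched for in RefSeq promoters of GRCm38.p6. The 250 bases before the start are shown for the casein that followed the milk value most closely, Csn1s1, and for the 2 marker genes whose window held the motif, Csn2 and Glycam1. The motif is in capitals, and each sequence runs 5′ to 3′ on the gene's strand. Csn1s1 is at chr5:87665958-87666207 on the + strand, Csn2 at chr5:87699426-87699675 on the - strand and Glycam1 at chr15:103565082-103565331 on the - strand.
Csn1s1: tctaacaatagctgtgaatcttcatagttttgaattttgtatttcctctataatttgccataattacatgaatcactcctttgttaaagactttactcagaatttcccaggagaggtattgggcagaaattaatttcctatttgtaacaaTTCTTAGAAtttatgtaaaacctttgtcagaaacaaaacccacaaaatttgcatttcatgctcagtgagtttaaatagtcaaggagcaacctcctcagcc
Csn2: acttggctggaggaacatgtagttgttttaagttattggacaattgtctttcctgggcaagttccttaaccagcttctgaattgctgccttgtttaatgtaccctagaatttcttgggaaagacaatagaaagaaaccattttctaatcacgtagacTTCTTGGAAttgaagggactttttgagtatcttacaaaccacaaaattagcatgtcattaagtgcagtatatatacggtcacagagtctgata
Glycam1: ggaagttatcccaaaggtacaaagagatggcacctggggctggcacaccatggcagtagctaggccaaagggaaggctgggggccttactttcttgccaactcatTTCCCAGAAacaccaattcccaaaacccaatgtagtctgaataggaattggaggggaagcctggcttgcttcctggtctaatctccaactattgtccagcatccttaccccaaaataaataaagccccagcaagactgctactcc
The motif began 100 bases before the start in Csn1s1, 93 in Csn2 and 145 in Glycam1. The same window of Csn1s2a, Wap, Lao1, Gldc, Olah and AI506816 held no match. In Csn1s2a, a match began at base 21 counted from the start, outside that window. Of all 32851 promoter windows, 2306 (7.02%) held the motif. The share was 6.52% (51 of 782 windows) for the genes that were higher in milk-high tumors and 6.27% (75 of 1197) for those that were lower, so neither set exceeded the share over all promoters. The sequences are those of the reference strain, while the tumors carried FVB and MOLF alleles.

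The milk value changed gradually over the 134 tumors, with no gap at either limit. It ran from 9.63 to 12.90 in milk-high tumors (median 10.94), from 7.56 to 9.61 in the tumors between (median 8.74) and from 5.40 to 7.53 in milk-low tumors (median 6.62). The last tumor inside the milk-high limit, numbered 40, was at 9.63 and the next, numbered 116, at 9.61. At the other limit, tumor 134 was inside at 7.53 and tumor 99 outside at 7.56.

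Csn1s2a ran from 9.12 to 12.90 in milk-high tumors (median 11.32) and from 5.03 to 7.86 in milk-low tumors (median 6.05). Csn2 ran from 10.59 to 13.08 (median 12.14) and from 5.81 to 10.59 (median 7.85). Glycam1 ran from 6.34 to 12.73 (median 9.74) and from 4.84 to 9.56 (median 5.24). The groups were separate for Csn1s2a, met at the limit for Csn2 and overlapped for Glycam1. The detection floor was 5.72, a level that 95% of smell and pheromone receptor genes did not exceed. All 45 milk-low tumors were above it for Csn2, 31 for Csn1s2a and 9 for Glycam1, so "milk-low" means less milk gene RNA and not its absence. Across 134 tumors, Pearson's r was 0.93 between Csn1s2a and Csn2, 0.66 between Csn1s2a and Glycam1, and 0.57 between Csn2 and Glycam1 (Spearman's rho 0.95, 0.71 and 0.69).

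**Figure D1:**
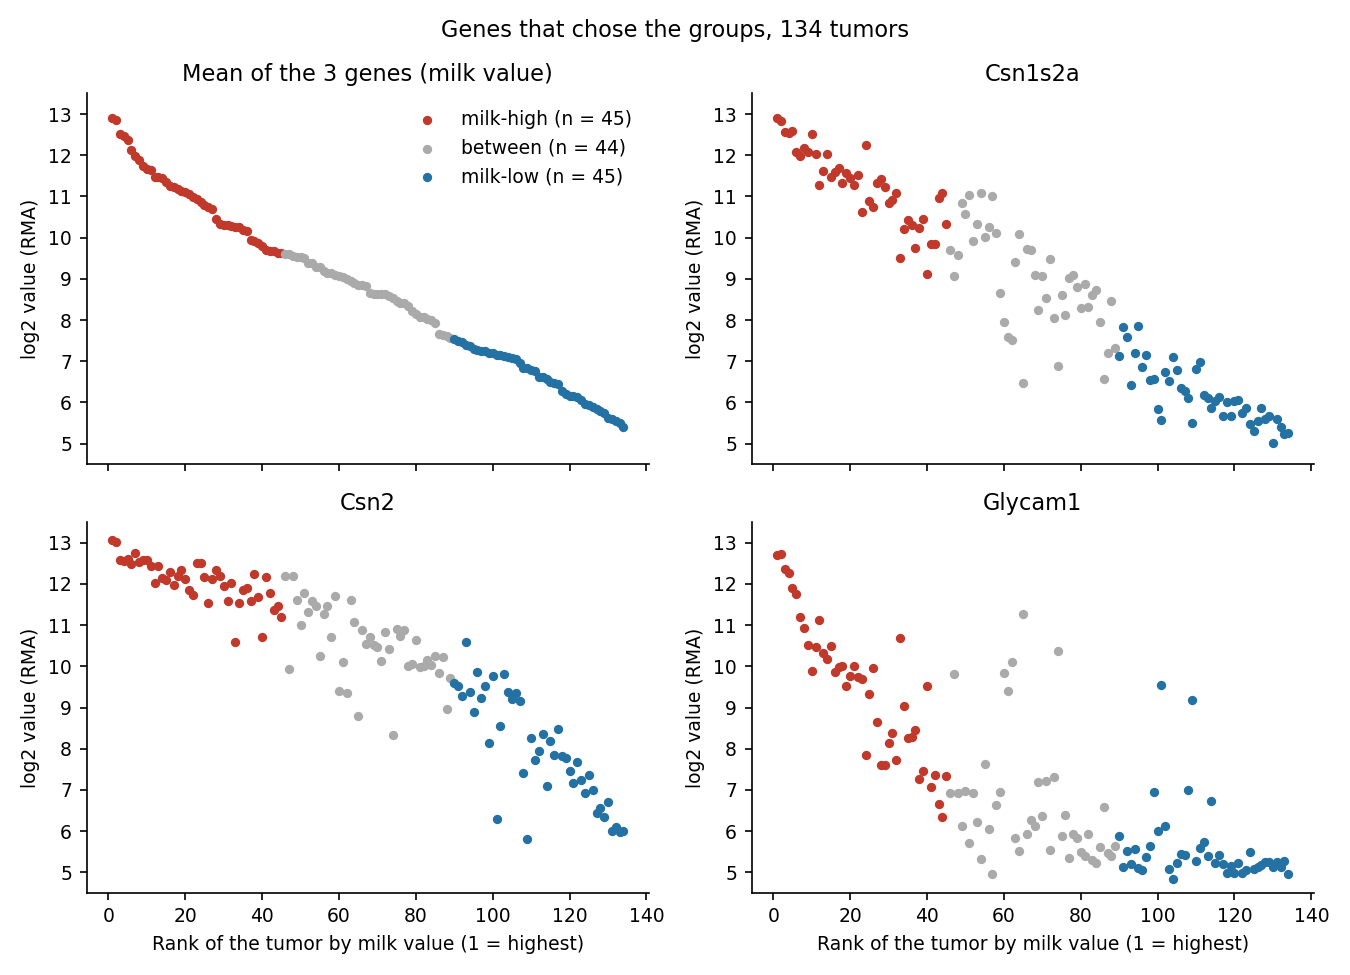
The milk value and the log2 levels of Csn1s2a, Csn2 and Glycam1 (vertical axes) in 134 tumors ordered by milk value (horizontal axes), 1 point per tumor, with milk-high tumors in red, milk-low tumors in blue and the 44 between in grey. The milk value falls without a gap, and the highest milk-low tumor reaches 9.56 for Glycam1.

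Both groups held epithelial RNA. Epcam, an epithelial surface protein, had a median of 11.22 in milk-high and 11.26 in milk-low tumors, and Krt8, a luminal keratin, 12.23 and 12.10. Neither gene's difference passed the test (adjusted p = 0.997 and 0.174). Of the 11 general luminal genes that include both, Krt19 was higher (0.74) and Krt7 (-0.25) and Grhl2 (-0.16) were lower. The labels' numbers form a run from 1 to 106 and another from 107 to 134, and milk-high tumors held 36 and 9 of them, milk-low tumors 35 and 10 (Fisher's exact test, two-sided, p = 1.0). Arrays deviated slightly less from the median array in milk-high tumors (mean 0.109 against 0.123, permutation test, two-sided, p = 0.0545), and 2 milk-high and 9 milk-low tumors exceeded 1.5 times the median deviation. Most arrays of tumors 109 to 120 resembled, in order, those of tumors 97 to 108. The mean correlation of the 12 pairs over genes was 0.365 against 0.0648 for other pairings, and 11 pairs were above that value while the lowest was at -0.0543. For 10 pairs, the correlation was the highest among the 12 possible partners. Over the 12 pairs, the milk values correlated at 0.873, and 9 pairs lay in the same group. Whether some pairs are the same material, which would make fewer than 45 independent tumors a group, was not tested. The counts of genes and the calls of list genes are therefore also given without tumors 109 to 120, which leaves 40 milk-high and 42 milk-low tumors.

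Of 19935 genes tested, 750 (3.76%) were higher and 1189 (5.96%) lower in milk-high tumors by limma's moderated test with Benjamini-Hochberg adjustment at 0.05. Most of these differences were small. The median was 0.20 among the higher and -0.16 among the lower genes, 8 higher and 4 lower genes differed by more than 2-fold, and 38 and 18 by more than 1.5-fold. The median over all genes was -0.01, and 30 higher and 85 lower genes had means below the detection floor in both groups. Without tumors 109 to 120, 549 genes (2.75%) were higher and 1000 (5.02%) lower. With the levels of 7 lists of other cell types as covariates (fat, skeletal muscle, fibroblasts, endothelium, macrophages, T and NK cells, B and plasma cells), 303 (1.52%) were higher and 514 (2.58%) lower.

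Milk proteins outside the rule were higher in milk-high tumors for 6 of 13 measured genes, namely Csn1s1, Lao1, Wap, Ltf, Cel and Saa3, and lower for none, against 3.76% of all genes higher. This list and all others here were chosen with earlier results of these data known, so their shares are a description only. Csn1s1, alpha-S1-casein, is the nearest measured neighbour of Csn2 on chromosome 5 and had the largest difference of all genes tested. Its log2 level ran from 9.25 to 12.90 in milk-high tumors (median 11.72) and from 5.24 to 10.68 in milk-low tumors (median 8.90). In 41 of 45 milk-high tumors it lay above every milk-low tumor, so the groups overlapped little. The difference was 2.97 ± 0.23 (SE, n = 45 and 45), adjusted p = 1.93e-18, or 7.81-fold.

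Lao1 encodes the L-amino acid oxidase of mouse milk. Its level ran from 8.74 to 11.81 in milk-high tumors (median 10.53) and from 6.08 to 10.46 in milk-low tumors (median 9.02). The groups overlapped, with 23 milk-high tumors above the highest milk-low tumor, and the difference was 1.56 ± 0.19 (SE), adjusted p = 3.14e-09. Wap, whey acidic protein, ran from 8.37 to 12.39 in milk-high tumors (median 10.67) and from 7.57 to 10.86 in milk-low tumors (median 9.70). Here 19 milk-high tumors exceeded every milk-low tumor, and the difference was 1.11 ± 0.18 (SE), adjusted p = 8.85e-06. Ltf, the iron-binding protein lactoferrin, differed by 0.66 (adjusted p = 0.000757), Cel, the bile salt-stimulated lipase, by 0.65 (adjusted p = 0.00347) and Saa3, an acute phase protein of mammary secretions, by 0.50 (adjusted p = 0.0176, or 0.106 with the cell type covariates).

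Some abundant milk proteins did not pass. Csn3, kappa-casein, which coats the casein micelle, ran from 11.85 to 12.44 in milk-high tumors (median 12.24) and from 11.55 to 12.71 in milk-low tumors (median 12.16). The groups overlapped fully, and the difference of 0.09 ± 0.04 (SE), adjusted p = 0.149, did not pass the test. Trf (transferrin) and Wfdc18 (a whey acidic protein family member) each differed by 0.09, with medians of at least 12.43 in both groups (adjusted p = 0.0808 and 0.324). Csn1s2b, the paralog of Csn1s2a, was above the floor in 3 milk-high tumors and in no milk-low tumor. Of 19 other measured genes around Csn2, Csn1s1 and the sulfotransferase gene Sult1d1 were higher and none was lower, against 3.76% of all genes higher. Sult1d1 did not exceed the floor in any tumor of either group (highest level 5.16), so no size is given for it, and its call was lost with the cell type covariates (adjusted p = 0.149). Of 11 genes around Glycam1, the integrin gene Itga5 (0.23) was higher and none was lower.

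**Figure D2:**
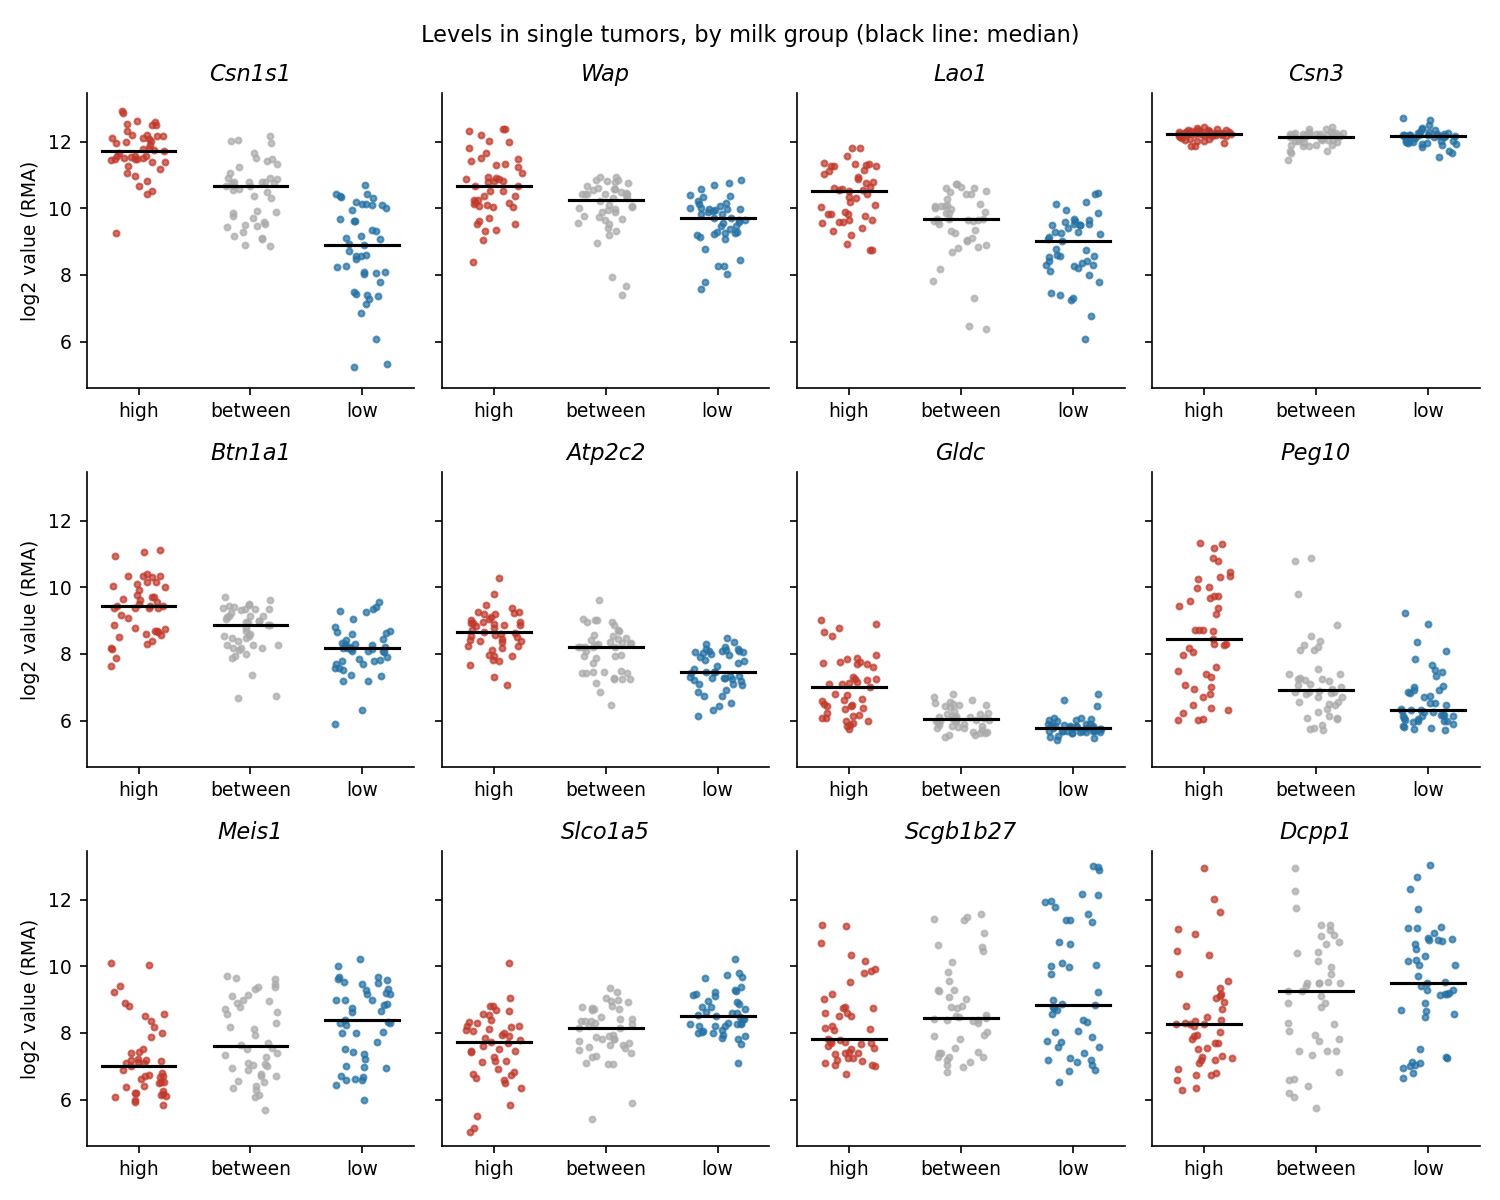
Log2 levels (vertical axes) of 12 genes in milk-high (red), in-between (grey) and milk-low (blue) tumors, 1 point per tumor with a black line at the median. Csn1s1 is higher in 41 of 45 milk-high tumors than in any milk-low tumor, the Csn3 medians are 12.24 and 12.16, and Scgb1b27 and Dcpp1 are scattered within each group.

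Genes of the milk fat globule were higher for 7 of 15 (median of the list 0.18) and lower for none, against 3.76% of all genes higher. Btn1a1, butyrophilin, the membrane protein that coats secreted fat droplets, ran from 7.65 to 11.13 in milk-high tumors (median 9.43) and from 5.91 to 9.56 in milk-low tumors (median 8.17). It lay above all milk-low tumors in 19 milk-high tumors and differed by 1.29 ± 0.16 (SE), adjusted p = 2.23e-08. Xdh, xanthine dehydrogenase, its partner in the globule membrane, differed by only 0.20 (adjusted p = 0.0217), and Plin2, the droplet coat protein, by 0.42 (adjusted p = 2.83e-05). Olah, the thioesterase that ends fatty acid chains at the medium length typical of milk fat, ran from 4.82 to 9.87 in milk-high tumors (median 5.47) and from 4.78 to 5.46 in milk-low tumors (median 5.06). No milk-low tumor was above the floor, against 16 of 45 milk-high tumors. The milk-high mean was thus at least 1.16-fold higher, with the floor in place of the milk-low level, and the measured difference was 0.86 ± 0.18 (SE), adjusted p = 0.000695.

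Lpl, which frees fatty acids from blood lipids (0.65, adjusted p = 0.0141), and Fabp3, a fatty acid carrier (0.45, adjusted p = 0.00176), were also higher, as was the acyltransferase Gpat4 (0.13). Lpl and Fabp3 are strongly expressed in muscle as well. With the cell type lists as covariates, the adjusted p was 0.0242 for Lpl and 0.0783 for Fabp3. Cd36, a fatty acid transporter that endothelium and fat share, differed by 0.63 without passing the test (adjusted p = 0.101).

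Lipid synthesis was higher in several steps. For fatty acids, 7 of 15 genes were higher and 1 was lower (median 0.20), against 3.76% and 5.96% of all genes. Acaca, which makes malonyl-CoA, differed by 0.39, Acly, which supplies acetyl-CoA, by 0.31, Acss2, which makes it from acetate, by 0.41, the desaturase Fads1 by 0.45 and Thrsp (Spot 14), a lipogenic regulator, by 0.40. Me1 and Elovl1 were higher by 0.21 and 0.18. Fasn, the synthase itself, differed by 0.23 without passing the test (adjusted p = 0.214). Srebf1, the transcription factor of the fatty acid pathway, was lower (-0.24, adjusted p = 0.0428). With the cell type covariates, 3 genes of the list were higher and none was lower.

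For cholesterol, 9 of 12 genes were higher and none was lower (median 0.25), against 3.76% of all genes higher. They ran from Fdft1 (0.18), which makes squalene, to Idi1 (0.38), an isomerase early in the pathway, and included Hmgcs1, Mvd, Fdps, Sqle, Lss, Cyp51 and Msmo1. Nsdhl, Dhcr7 and Insig1 differed by 0.08, 0.04 and 0.11 without passing. Without tumors 109 to 120, 9 genes of the list were higher, and 6 were with the cell type covariates.

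For lactose and sugar supply, 3 of 8 genes were higher (median 0.11), against 3.76% of all genes. Slc2a1, the glucose transporter GLUT1, differed by 0.43 (adjusted p = 0.00034). B4galt1, the catalytic part of lactose synthase, differed by 0.27 (adjusted p = 0.000275), and Hk2, a hexokinase, by 0.23. Lalba, the other part of lactose synthase, was not among the genes measured here.

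Transporters of the secretory cell were higher for 6 of 15 genes (median 0.09), against 3.76% of all genes. The largest difference was that of Atp2c2, the Golgi calcium and manganese pump SPCA2, whose level ran from 7.06 to 10.28 in milk-high tumors (median 8.65) and from 6.15 to 8.49 in milk-low tumors (median 7.45). It lay above every milk-low tumor in 28 of 45 milk-high tumors and differed by 1.13 ± 0.13 (SE), adjusted p = 3.58e-10. Slc34a2, a phosphate transporter, differed by 0.54, Slc30a2, which loads zinc into milk, by 0.51, its relative Slc30a4 by 0.19, the amino acid transporter Slc7a5 by 0.44 and the folate receptor Folr1 by 0.25. Atp2b2, the calcium pump of the apical membrane in lactation, differed by 0.05 and did not pass (adjusted p = 0.246). Abcg2, which carries riboflavin and drugs into milk, was not in the list but among the genes most like the milk value. Its level ran from 6.93 to 9.38 in milk-high tumors (median 7.95) and from 6.57 to 8.09 in milk-low tumors (median 7.25), with 20 milk-high tumors above all milk-low tumors, and it differed by 0.73 ± 0.10 (SE), adjusted p = 6.26e-08.

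Among 16 genes of prolactin and STAT5 signalling, 2 were higher and 2 lower (median 0.04), against 3.76% and 5.96% of all genes. Elf5, the alveolar transcription factor, ran from 9.83 to 11.23 in milk-high tumors (median 10.65) and from 9.74 to 11.14 in milk-low tumors (median 10.37). The groups overlapped almost fully, with a difference of 0.26 ± 0.06 (SE), adjusted p = 0.00496. Akt1, a kinase that supports milk metabolism, was higher by 0.18. Ghr, the growth hormone receptor (-0.34, adjusted p = 0.00219), and Erbb4, the neuregulin receptor (-0.37, adjusted p = 0.0101), were lower. Stat5a differed by 0.13 (adjusted p = 0.109), Stat5b by 0.04 and Jak2 by 0.12, none of which passed. Phosphorylation of STAT5 was not measured by these arrays, and Prlr was not among the genes measured here.

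Some genes of luminal cell types were higher and some lower, against 3.76% and 5.96% of all genes. In the luminal progenitor and alveolar list, Aldh1a3 (0.23), Elf5, Cd14 (0.35) and Itga2 (0.43) were higher and the epithelial transcription factor Ehf (-0.30) lower, of 11 genes. Among 8 genes of hormone-sensing luminal cells, Prom1, a surface marker of these cells, was lower (-0.56, adjusted p = 0.00041), while Esr1, the estrogen receptor, differed by less than its SE (adjusted p = 0.987). Of 11 general luminal genes, the keratin gene Krt19 was higher (0.74, adjusted p = 0.000535) and Krt7 (-0.25) and Grhl2 (-0.16) were lower, though Grhl2 differed by -0.27 in the lower and 0.24 in the higher run of label numbers. None of 10 myoepithelial genes passed in limma, and none had an unadjusted p under 0.05.

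Genes of protein folding in the endoplasmic reticulum were higher for 10 of 15 (median 0.18) and lower for none, against 3.76% of all genes higher. They included the chaperones Hspa5 (0.19), Hsp90b1 (0.21), Hyou1 (0.28) and Calr (0.18), the disulfide isomerases Pdia4 and Pdia6, and Sdf2l1 (0.39), the largest of the list. Ddit3, the stress-induced transcription factor CHOP, differed by 0.01 and did not pass. With the cell type covariates, 5 of the 15 were higher. For amino acid supply, Psat1, Mthfd2, Asns and Chac1 were higher among 10 genes, by 0.15 to 0.26, and none was with the cell type covariates.

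**Figure D3:**
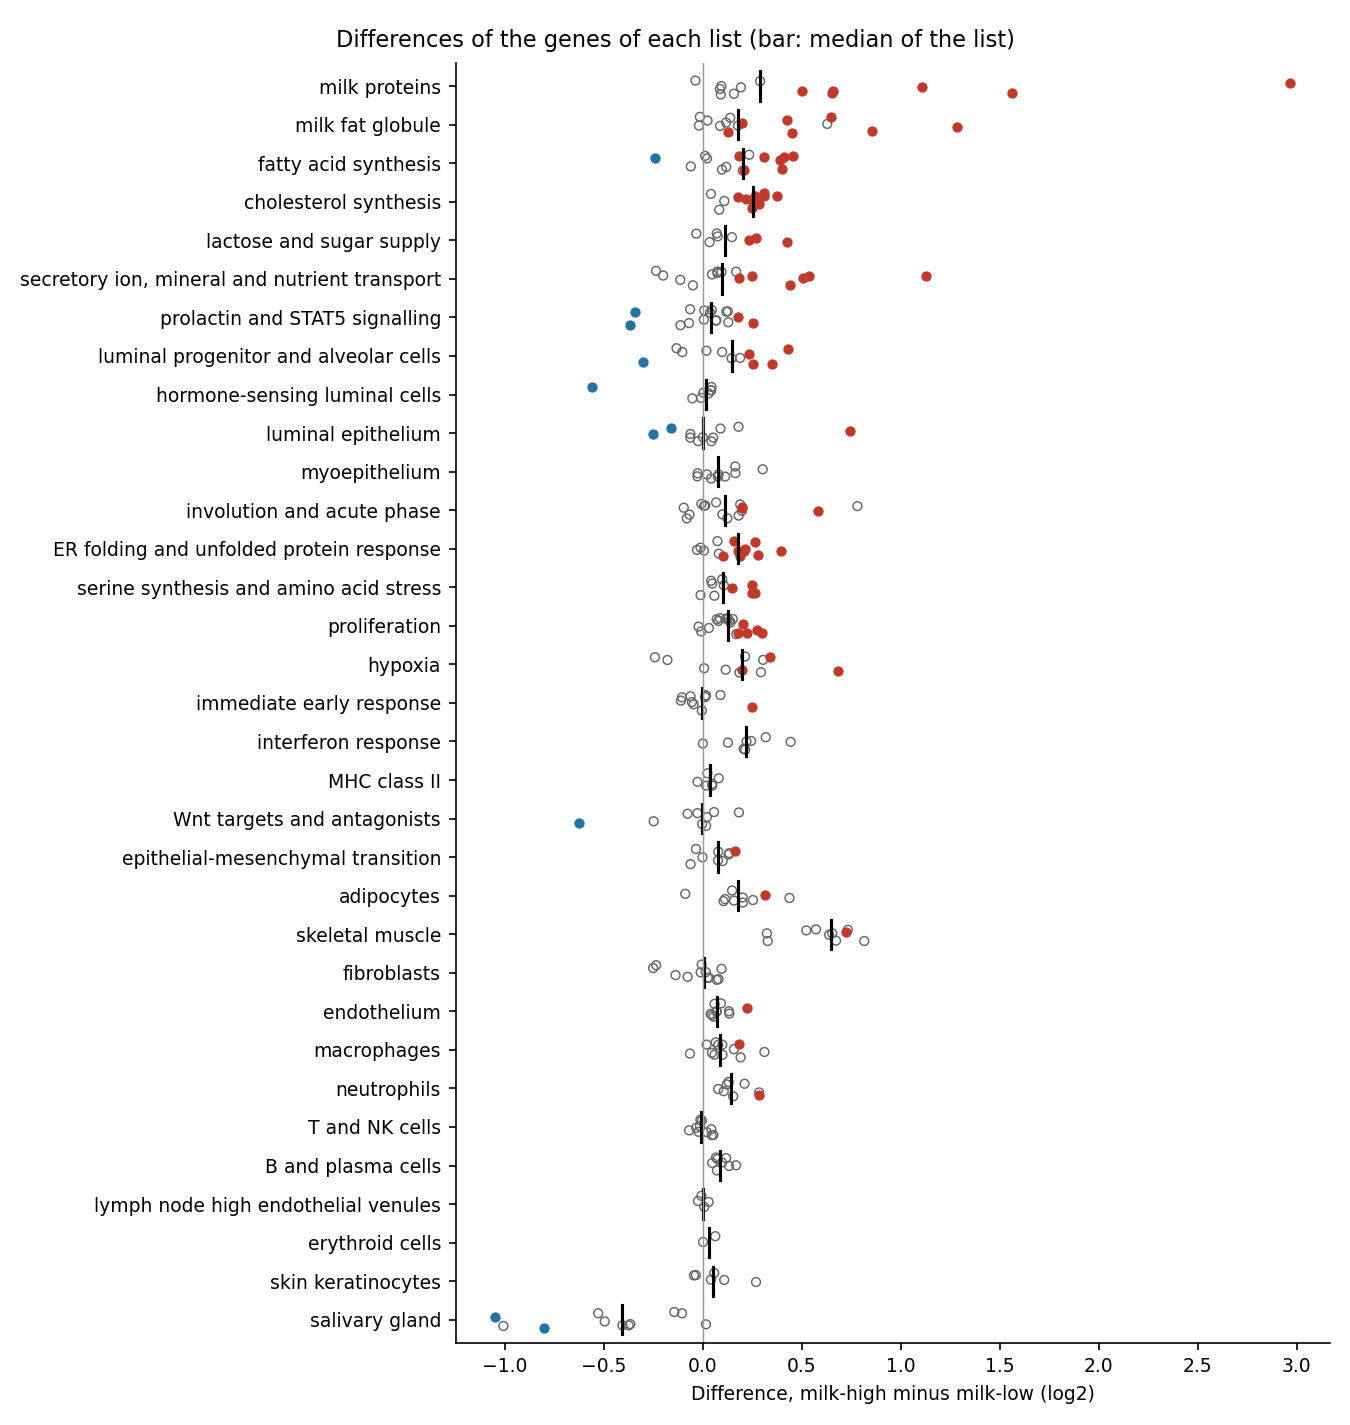
Difference between milk-high and milk-low tumors in log2 units (horizontal axis) for each measured gene of 33 lists (vertical axis), 1 point per gene, red where higher and blue where lower at an adjusted p under 0.05, open where not, with a black bar at the list's median. Milk, lipid and protein folding lists lie mostly to the right of 0, the skeletal muscle list has a median of 0.65 with 1 gene passing, and the salivary gland list lies mostly to the left.

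Of the 86 list genes that passed, 17 no longer did without tumors 109 to 120 (adjusted p from 0.0504 to 0.194). They were Lpl, Me1, Slc30a4, Aldh1a3, Cd14, Ctsl, Atf4, Chac1 and Mcm2 in the milk, luminal, involution, stress and proliferation lists, and Atf3, Snai1, Lipe, Actn3, Eng, Itgam, Dcpp1 and Dcpp2 in the others. With the cell type covariates, 44 of the 86 did not pass (adjusted p from 0.0514 to 0.575). In the milk and lipid lists these were Saa3, Fabp3, Gpat4, Me1, Acss2, Elovl1, Thrsp, Srebf1, Idi1, Fdft1, Msmo1, Hk2, Slc30a4 and Folr1. In the signalling and luminal lists they were Erbb4, Akt1, Aldh1a3, Cd14, Krt7 and Grhl2. In the folding and amino acid lists they were Atf4, Pdia4, Pdia6, Creld2, Hsp90b1, Psat1, Mthfd2, Asns and Chac1. The others were Ctsl, Saa2, Aurka, Rrm2, Mcm2, Ldha, Atf3, Wif1, Snai1, Actn3, Eng, Itgam, Cxcr2, Dcpp1 and Dcpp2, of which Actn3, Eng and Itgam belong to lists that made up the covariates.

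Outside the milk lists, the largest difference was that of Peg10, an imprinted gene derived from a retrotransposon and best known from the placenta. Its level ran from 6.02 to 11.33 in milk-high tumors (median 8.44) and from 5.73 to 9.21 in milk-low tumors (median 6.31). The groups overlapped, but 17 milk-high tumors exceeded every milk-low tumor, and the difference was 1.89 ± 0.27 (SE), adjusted p = 4.81e-07, or 3.71-fold. Sgce, its imprinted neighbour on chromosome 6, which encodes epsilon-sarcoglycan, was looked at after the value of Peg10 was seen. Its groups overlapped almost fully, with a difference of 0.64 ± 0.17 (SE), adjusted p = 0.00868, which did not pass with the cell type covariates (adjusted p = 0.0698).

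Gldc, the glycine decarboxylase of mitochondria, followed the milk value next after Csn1s1 (r = 0.74 over 134 tumors). It ran from 5.75 to 9.01 in milk-high tumors (median 7.02) and from 5.43 to 6.80 in milk-low tumors (median 5.77). All 45 milk-high tumors but only 29 milk-low tumors were above the floor, and 23 milk-high tumors exceeded every milk-low tumor. The difference was 1.20 ± 0.14 (SE), adjusted p = 6.8e-10.

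The 10 genes outside the rule with the highest r with the milk value were Csn1s1 (0.83), Gldc (0.74), Atp2c2 (0.68), Lao1 (0.64), Wdr62 (0.63), Btn1a1 (0.61), Slc45a3 (0.61), Abcg2 (0.60), Lrp8 (0.59) and Peg10 (0.59). Wdr62 is a scaffold protein of the spindle pole, Slc45a3 a sugar transporter family member and Lrp8 a receptor for reelin and apolipoprotein E. Differences of these 3 were smaller, at 0.39, 0.50 and 0.47. All tumors share the array platform, and tumors 97 to 108 and 109 to 120, whose arrays resemble each other, all enter these correlations.

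**Figure D4:**
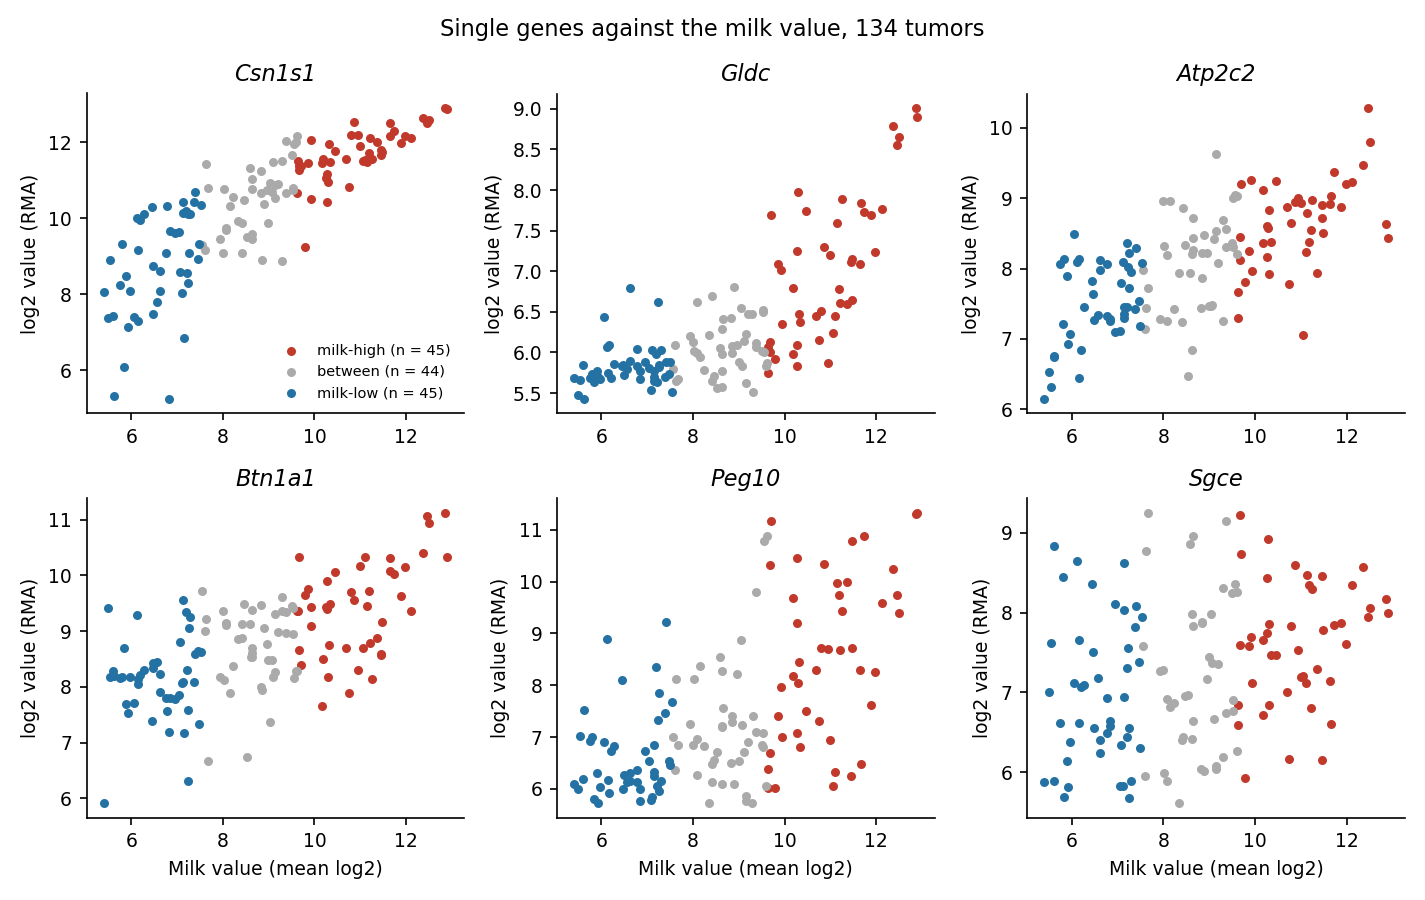
Log2 levels of Csn1s1, Gldc, Atp2c2, Btn1a1, Peg10 and Sgce (vertical axes) against the milk value (horizontal axes), 1 point for each of 134 tumors, in the group colours. Csn1s1 climbs along the whole range (r = 0.83), Gldc is near the floor in most milk-low tumors, and Sgce is scattered in every group.

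Other genes higher in milk-high tumors were Muc4, a membrane mucin (0.89), Car2, carbonic anhydrase 2 (0.90), the kallikrein proteases Klk6 (0.84) and Klk10 (0.82), Pdk4, which turns pyruvate away from oxidation (0.91), and AI506816 (1.32) and 1810065E05Rik (0.88), which the sources used here give no role. Muc4 exceeded every milk-low tumor in 22 milk-high tumors. Klk6 did so in none, since a milk-low tumor held its highest level of 10.98. With the cell type covariates, AI506816 (adjusted p = 0.106) and Pdk4 (adjusted p = 0.127) no longer passed.

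Of 10 skeletal muscle genes, 1 passed as higher in milk-high tumors, against 3.76% of all genes. The mean level of the 10 muscle genes ran from 6.33 to 11.23 in milk-high tumors (median 7.85) and from 6.13 to 9.56 in milk-low tumors (median 6.89), and the median difference of the list was 0.65, with Actn3 alone passing (adjusted p = 0.0482). Actn3 did not pass without tumors 109 to 120 (adjusted p = 0.194) or in either run of label numbers alone. In the lower run of label numbers that median was 0.23, in the higher run 2.11. Fat genes had a list median of -0.03 and 1.02 in these runs. Lipe alone passed over both (0.32), a call lost without tumors 109 to 120 (adjusted p = 0.0755). The part of muscle and fat in the results above was not tested beyond the covariates.

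Genes lower in milk-high tumors overlapped between the groups. Slco1a5, an organic anion transporter, ran from 5.02 to 10.10 in milk-high tumors (median 7.73) and from 7.11 to 10.22 in milk-low tumors (median 8.49). The groups overlapped, but only 2 of 45 milk-low tumors lay below the milk-high median, and the difference was -1.03 ± 0.18 (SE), adjusted p = 4.94e-05. Meis1, a homeobox transcription factor, ran from 5.85 to 10.10 in milk-high tumors (median 7.02) and from 5.99 to 10.21 in milk-low tumors (median 8.40). Both groups covered nearly the same range with different medians, and the difference of -1.06 ± 0.23 (SE), adjusted p = 0.00117 did not pass with the cell type covariates (adjusted p = 0.276).

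Scgb1b27 and Scgb2b27, subunits of the androgen-binding protein of mouse saliva, were lower by 1.05 (adjusted p = 0.0298) and 0.95 (adjusted p = 0.019) on the log2 scale, and Dcpp1, a salivary gland secretory protein, by 1.05 (adjusted p = 0.0305). Scgb1b27 ran from 6.76 to 11.23 in milk-high tumors (median 7.82) and from 6.54 to 13.00 in milk-low tumors (median 8.84). The spread within each group exceeded the difference. The 3 genes belong to families of near-identical copies, so their probes may read more than 1 gene. The mean level of the 11 salivary gland genes ran from 5.48 to 9.00 in milk-high tumors (median 6.02) and from 5.50 to 8.79 in milk-low tumors (median 6.46). Of these genes Dcpp1 and Dcpp2 were lower, against 5.96% of all genes. In both groups 5 of the 11 had means below the detection floor, among them Dcpp2, which exceeded it in 7 milk-high and 14 milk-low tumors. With the mean level of the 11 genes as a covariate, added after the data were seen, the differences were -0.63 for Scgb1b27 (adjusted p = 0.301) and -0.66 for Scgb2b27 (adjusted p = 0.182), which are not in that list. Scgb1b27, Scgb2b27 and Dcpp1 each lost their call in 9 alternatives, the most of the 34 genes with the largest differences or the highest r. Neither they nor Dcpp2 passed in either run of label numbers alone or with the cell type covariates. Without tumors 109 to 120, Dcpp1 (adjusted p = 0.0913), Dcpp2 (adjusted p = 0.129) and Scgb2b27 (adjusted p = 0.0571) did not pass, and Scgb1b27 did (adjusted p = 0.0484).

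The other lower genes were Chad, a cartilage matrix protein (-0.87), the carboxypeptidase Cpm (-0.78), the glutamine transporter Slc38a1 (-0.65), the lysophospholipase Gdpd1 (-0.63), Elapor1, an endosome and lysosome protein (-0.63), the gluconeogenic enzyme Fbp1 (-0.62), Wif1, a secreted Wnt inhibitor (-0.62), Scrg1 (-0.62), Car8, a carbonic anhydrase relative (-0.60), and the keratin Krt23 (-0.60). Of these, Slc38a1, Gdpd1 and Krt23 passed with the cell type covariates and the others did not (adjusted p from 0.0558 to 0.316).

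Over all genes, 3.76% were higher and 5.96% lower. Proliferation genes were higher for 5 of 18 (median 0.13), among them Mki67 (0.22) and Rrm2 (0.30), and lower for none. The median of this list was 0.18 in the lower run of label numbers but -0.06 in the higher run. Hypoxia genes were higher for 3 of 11, namely Ndrg1 (0.69), Pgk1 (0.34) and Ldha (0.20). Of the 11, 9 had a positive difference, while Car9 (-0.24) and Egln3 (-0.18) had a negative one and did not pass. Ldha did not pass with the cell type covariates. Among 16 genes of involution, the regression of the gland after weaning, Saa2 (0.58), Ctsl and Bcl3 (0.20 each) were higher, while Stat3, the factor that starts it, differed by -0.01 (adjusted p = 0.953).

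The share of genes that passed differed between chromosomes. On chromosome 7, 6.52% were higher and 2.25% lower (113 and 39 of 1734), against 3.76% and 5.96% over all genes. On chromosome 18, 13.4% were lower (63 of 470), on chromosome 11 10.2% (160 of 1563) and on chromosome 16 8.95% (58 of 648). With the cell type covariates, 5.53% of genes were lower on chromosome 18, 3.13% on chromosome 11 and 4.78% on chromosome 16, against 2.58% over all genes. In that fit chromosomes 13 (3.83%), X (3.65%), 5 (3.43%) and 12 (3.37%) had a larger share lower than chromosome 11, which thus did not stand out. On chromosome 7 2.54% were higher, against 1.52% over all genes. Without the covariates, the median difference of the lower genes was -0.18 on chromosomes 11 and 18 and -0.16 on chromosome 16, against -0.16 over all lower genes. Copy number and MOLF segments were not measured here.

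**Figure D5:**
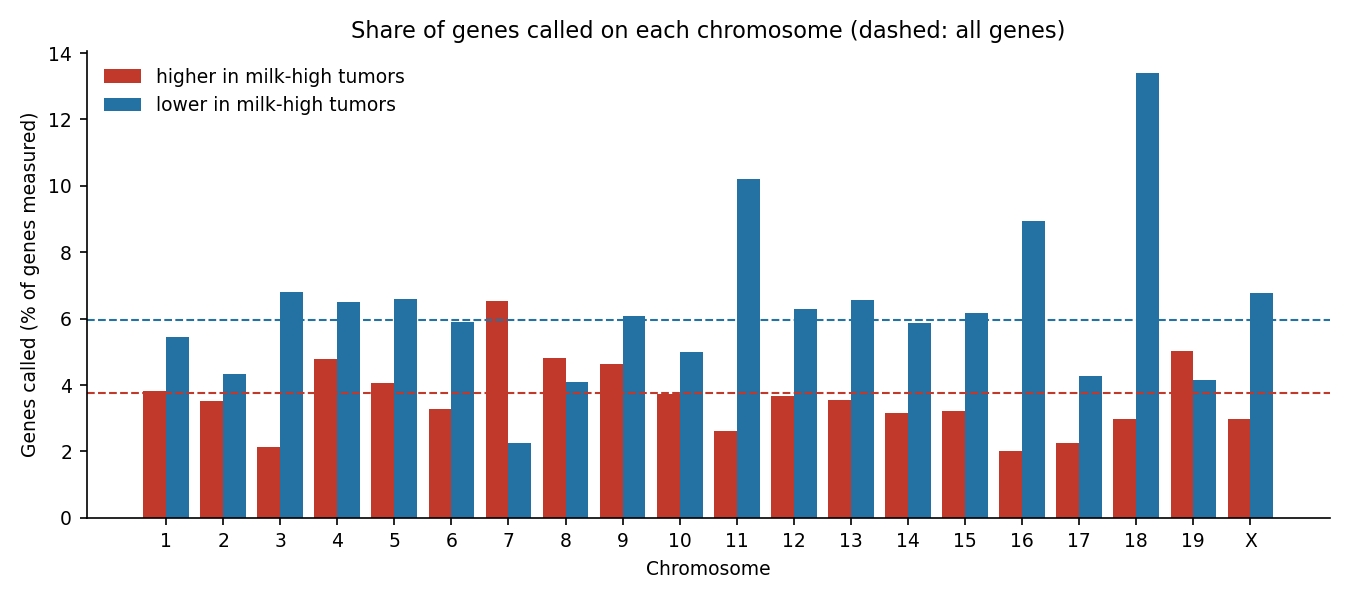
Percent of the genes measured on each chromosome (horizontal axis) that were higher (red bars) or lower (blue bars) in milk-high tumors at an adjusted p under 0.05, with dashed lines at 3.76% and 5.96%, the shares over all genes. Chromosome 18 has the tallest blue bar (13.4%), and chromosomes 7, 8 and 19 have more higher than lower genes.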

How the data were processed

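Gene expression was measured in 134 mammary tumors, 1 array each. The authors deposited log2 values per probe set, summarised with RMA (version not stated), and they were used as deposited. Of 35556 probe sets, 21789 had 1 gene symbol, 1621 several and 12146 none. Symbols were updated by Entrez ID to RefSeq's table of GRCm38.p6 (21698 matched), and a gene took its probe set with the highest mean, giving 19938 genes. Csn1s2a, Csn2 and Glycam1 were left out of the fit because they chose the groups.

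Groups were compared with limma 3.58.1 in R 4.3.3 (lmFit, eBayes, two-sided, Benjamini-Hochberg over 19935 genes, no covariate), after a test on simulated data. Other calculations used Python 3.11.15 with scipy 1.17.1 (100000 resamples for the permutation test). As detection floor served the level that 95% of 1190 olfactory and vomeronasal receptor genes stayed under by their mean. The number of arrays limits the precision, and separate extractions are not stated, so p-values measure the spread between these tumors, which were treated as independent. Probes were designed on the reference strain, and MOLF alleles may bind differently, which was not tested.

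Named genes were the 15 higher and 15 lower genes with the largest difference and a mean above the floor in a group, the members of 33 lists (349 genes measured), the 10 measured genes on each side of Csn2 and Glycam1, and the 10 genes with the highest Pearson r with the milk value. Sgce was added after values were seen. The members of the groups and the lists were chosen with earlier results of these data known. Alternatives covered probe sets, normalization, covariates, label-number runs, group size, array weights and other genes choosing the groups.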

Additional observations from a re-analysis of the deposited data

Results flagged for a closer look

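Grhl2, a transcription factor of epithelial identity, differed between the milk groups in opposite directions in the 2 runs of label numbers. It was lower in milk-high tumors by 0.27 on the log2 scale in tumors 1 to 106 and higher by 0.24 in tumors 107 to 134. The difference between these differences was 0.516 (limma interaction term, adjusted p = 0.0444), and Grhl2 was the only gene of 19935 to pass that test, with 3479 genes at an unadjusted p under 0.05. These 3479 exceed a share of 0.05 of the genes tested, so 1 passing gene does not show that the 2 runs otherwise matched. Its call as lower in milk-high tumors over both runs therefore rests on tumors 1 to 106. The second run held 9 milk-high and 10 milk-low tumors.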

How the results depend on the processing

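None of the alternatives turned the direction of the 34 genes with the largest differences or the highest r. These genes were picked by those values in tumors that every alternative reused in whole or in part, so this is no independent check of them. Calls were lost for 26 of them in tumors 107 to 134 alone, for 13 with groups chosen by Glycam1 and for 13 with the cell type lists as covariates. Counts moved by more than 1.5 times in several settings, some of which held fewer tumors, and the cause was otherwise not tested. Starting from 750 higher and 1189 lower genes, tumors 107 to 134 alone gave 84 and 65 (55 and 52 shared with the full comparison), groups chosen by Glycam1 alone 222 and 308 (164 and 290 shared), the cell type lists as covariates 303 and 514 (263 and 466 shared), and the salivary gland list as a covariate 436 and 661 (422 and 643 shared). With 30 tumors a group, 704 genes were lower (611 shared). Of the genes in the lists, 76 were higher and 10 lower. In tumors 107 to 134 alone, 13 were higher and 0 lower by limma (14 lower at an unadjusted p under 0.05). Groups chosen by Glycam1 gave 30 higher and 2 lower, and the cell type covariates 41 and 3. List genes lower numbered 6 with 30 tumors a group, 4 with groups chosen by Wap, Csn1s1 and Csn3, and 5 with the salivary gland covariate. The other alternatives, among them probe set means, repeated quantile normalization, array quality, the run as a covariate, 60 tumors a group, array weights and the milk value as a continuous covariate, stayed within 1.5 times. The salivary gland covariate and the removal of low-quality arrays, which left 43 and 36 tumors and gave 619 higher and 1167 lower genes, were chosen after seeing the data. No paired analysis was possible because the labels give 1 group and no shared replicate numbers.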

Other observations

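Few marker genes of immune and stromal cells passed the test, against 3.76% of all genes higher and 5.96% lower. Means were below the detection floor in both groups for 5 of 10 T and NK cell genes and 5 of 8 B and plasma cell genes. The same held for 5 of 8 neutrophil, 3 of 4 lymph node venule and 3 of 6 keratinocyte genes, which limits what these lists could show. None of 10 T and NK cell genes, 8 B and plasma cell genes, 6 MHC class II genes or 12 fibroblast genes passed in limma, with 1 fibroblast gene lower and none higher at an unadjusted p under 0.05 over these 4 lists. Of 12 macrophage genes Itgam, an integrin chain, passed (0.18), of 8 neutrophil genes the chemokine receptor gene Cxcr2 (0.28), and of 10 endothelial genes Eng, endoglin (0.22). Without tumors 109 to 120, Itgam (adjusted p = 0.1) and Eng (adjusted p = 0.0872) did not pass and Cxcr2 did. Cxcr2, whose list was not among the covariates, did not pass with the cell type covariates (adjusted p = 0.444). Among 8 interferon response genes the median was 0.22, none passed, and 3 were higher at an unadjusted p under 0.05. Of 11 immediate early genes the transcription factor gene Atf3 was higher (0.25), and of 9 genes of epithelial-mesenchymal transition Snai1 (0.16). Neither passed without tumors 109 to 120 (adjusted p = 0.0534 and 0.0509) or with the cell type covariates, and Atf3 passed in neither run of label numbers alone. None of 4 genes of lymph node high endothelial venules, 2 erythroid genes or 6 keratinocyte genes passed in limma, with 1 erythroid gene higher at an unadjusted p under 0.05.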
